A study of Mus musculus with 19 samples.

Results

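The unfolded protein response is represented here by 10 genes, which were found by symbol among the 24982 rows of a table of read counts from regulatory T cells (Tregs). They are the sensor genes Atf6 and Ern1, the transcription factor genes Xbp1, Atf4 and Ddit3, and the chaperone and isomerase genes Hspa5, Hsp90b1, Calr, Pdia4 and Pdia6. All 10 were among the 11464 genes that passed a filter on low counts and were tested. The table writes symbols in capitals, and they are given here in mouse style. Tregs were sorted as CD4+FoxP3-GFP+ cells from the lymph nodes that drain the injury, and divided by staining for CD44, an adhesion receptor that is high on activated and memory T cells. All mice were of the Foxp3DTR strain, whose Foxp3 gene carries a diphtheria toxin receptor and GFP, and were 8 to 16 weeks old. All were anesthetized with ketamine and xylazine and given buprenorphine, saline and atipamezole. The burn groups were exposed to a hot water bath for 9 seconds over 20% of the body surface, with cells taken 7 days after the injury, and the sham groups were handled alike with water at room temperature. There were 4 sham CD44high libraries (2 to 5), 5 sham CD44low libraries (1 to 5), 4 burn CD44high libraries (2 to 5) and 6 burn CD44low libraries (1, 2, 5, 1_2, 4_2 and 5_2). RNA of 50000 cells per sample was amplified to cDNA with SMART-Seq v4, so that bulk levels were read: fewer cells of a type and less RNA per cell cannot be told apart. The labels do not say whether a sample came from 1 mouse or from several, nor what the second number in 1_2, 4_2 and 5_2 stands for, and the p-values measure the spread between these samples only. Totals lay between 5582234 and 9433610 counts per library.

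Secreted and membrane proteins fold in the endoplasmic reticulum (ER), with help from chaperones such as HSPA5 (BiP) and from enzymes that form and rearrange disulfide bonds. When unfolded proteins build up, BiP leaves 3 sensors in the ER membrane: ATF6, which is cut in the Golgi to free a transcription factor; IRE1, the product of Ern1, which splices the mRNA of XBP1; and PERK, which slows translation and thereby favours that of ATF4. The freed or newly made factors raise chaperones, isomerases and degradation genes, and under lasting stress ATF4 raises Ddit3, which encodes CHOP, a factor linked to cell death. Plasma cells and other secretory cells depend on this pathway, and activated T cells use it as they grow. Counts per gene read neither the splicing of Xbp1 nor the cutting of ATF6 nor the translation of Atf4.

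Of the chaperone and isomerase genes, Hspa5, Calr, Hsp90b1 and Pdia6 share a promoter sequence, and Pdia4 does not hold it. The ER stress element (CCAAT, 9 unspecified bases, then CCACG, sought on both strands) was defined in genes of this kind, so its presence is background and not a result of these libraries. It was found in 4 of the 9 members with a promoter in the RefSeq table (GRCm38.p6, from 250 bases before to 50 after the start), Hspa5, Calr, Hsp90b1 and Pdia6, against 0.119% of all 32851 promoters of that length. Of the further ER genes described below, 5 of 120 promoters held it (Derl3, Canx, Dnajc3, Creld2 and Syvn1). The stretches around the members' elements are shown because all 4 genes are folding genes that differed between the subsets of Tregs. Capitals mark the element, and on the opposite strand it begins with CGTGG and ends with ATTGG.
Hspa5, chr2:34772010-34772058, plus strand: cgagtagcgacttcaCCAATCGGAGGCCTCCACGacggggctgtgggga
Calr, chr8:84847060-84847108, minus strand: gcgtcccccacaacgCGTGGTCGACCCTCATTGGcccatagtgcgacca
Hsp90b1, chr10:86705518-86705671, minus strand: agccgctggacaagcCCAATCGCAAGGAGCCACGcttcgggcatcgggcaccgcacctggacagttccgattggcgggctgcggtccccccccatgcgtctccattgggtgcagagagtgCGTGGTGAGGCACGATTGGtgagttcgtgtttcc
Pdia6, chr12:17266476-17266524, plus strand: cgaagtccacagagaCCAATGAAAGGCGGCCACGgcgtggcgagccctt
Each element lay upstream of the RefSeq start, and Hsp90b1 held 2 of them, 1 on each strand. The GENCODE gene given below for Hspa5 starts further upstream, at chr2:34771970, so that its element lies within that gene. CCAAT alone, which is part of every element, was found in 7 of the 9 members and in 37.4% of all promoters, and Pdia4, Ddit3 and Atf4 held it without a full element. The other motifs were found in none of the 9: the second form of the element (ATTGG, 1 unspecified base, CCACG, in 0.0365% of all promoters), the unfolded protein response element (TGACGTGG, 0.676%), the CCAAT/enhancer-ATF response element (TGATG, 1 unspecified base, AA, 3.97%) and the cyclic AMP response element (TGACGTCA, 1.79%).

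Between genes, the members spanned a wide range of levels. Per kilobase of exon (union exon length of GENCODE vM21), Calr held 279 ± 5.69 (SD, n = 4) and Hspa5 275 ± 16.5 CPM (read counts scaled to the library total) per kilobase in sham CD44high Tregs, which is within the spread between libraries. Calr encodes calreticulin, a lectin chaperone that also binds calcium, and lies at chr8:84841850-84846934 (minus strand, GRCm38), while Hspa5 lies at chr2:34771970-34777547 (plus strand). Pdia4 followed at 207 ± 7.79 and Hsp90b1 at 187 ± 18.2, an order that turned when lengths of the longest transcript were used. Pdia6 held 100 ± 5.56 and Xbp1 71.6 ± 5.80. The factor Atf4 held 21.9 ± 5.05, Atf6 6.07 ± 0.412, Ddit3 4.96 ± 1.71 and Ern1 0.479 ± 0.195 CPM per kilobase. Hence the chaperones and isomerases were the abundant members, and the sensor genes were among the lowest. In burn CD44high Tregs Hspa5 (410.0 ± 68.4) lay above Calr (324 ± 9.70) on the same scale. All levels below are CPM without a correction for length, and serve to compare libraries and not genes.

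The sort was visible in the counts. Foxp3, the factor that defines Tregs, was present in every group, with 87.8 ± 11 CPM (SD, n = 4) in sham CD44high, 115 ± 17.3 (n = 5) in sham CD44low, 70.7 ± 20.6 (n = 4) in burn CD44high and 104 ± 46.2 (n = 6) in burn CD44low Tregs. Cd44 itself held 595 ± 37.5 and 436 ± 54.6 CPM in the sham and burn CD44high groups, against 133 ± 16.1 and 117 ± 18.2 CPM in the CD44low groups.

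The first comparison asked how CD44high Tregs differ from CD44low Tregs, in sham and in burn mice. All 5 chaperone and isomerase genes were higher in CD44high Tregs, in sham and in burn mice, by 1.29-fold to 1.74-fold. Calr and Pdia4 did not pass in either when a trend on transcript length fitted to the mean, which also moves the level of each library, was taken out (Calr 0.12 and 0.17 on the log2 scale, adjusted p = 0.214 and 0.075, and Pdia4 0.17 and 0.25, adjusted p = 0.198 and 0.0505, in sham and burn mice). In sham mice 7 of the 10 members were higher and 1 was lower (edgeR, adjusted p under 0.05), beside 24.7% of all genes tested that were higher and 21.3% that were lower. In burn mice 6 were higher and 1 was lower, beside 20.1% and 17.2% of all genes. The members' median log2 fold change was 0.52 in sham and 0.53 in burn mice, against 0.01 and 0.00 over all genes tested. The members were chosen with earlier results of these data known, so these counts describe the 10 genes and test nothing about them as a list.

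**Figure D1:**
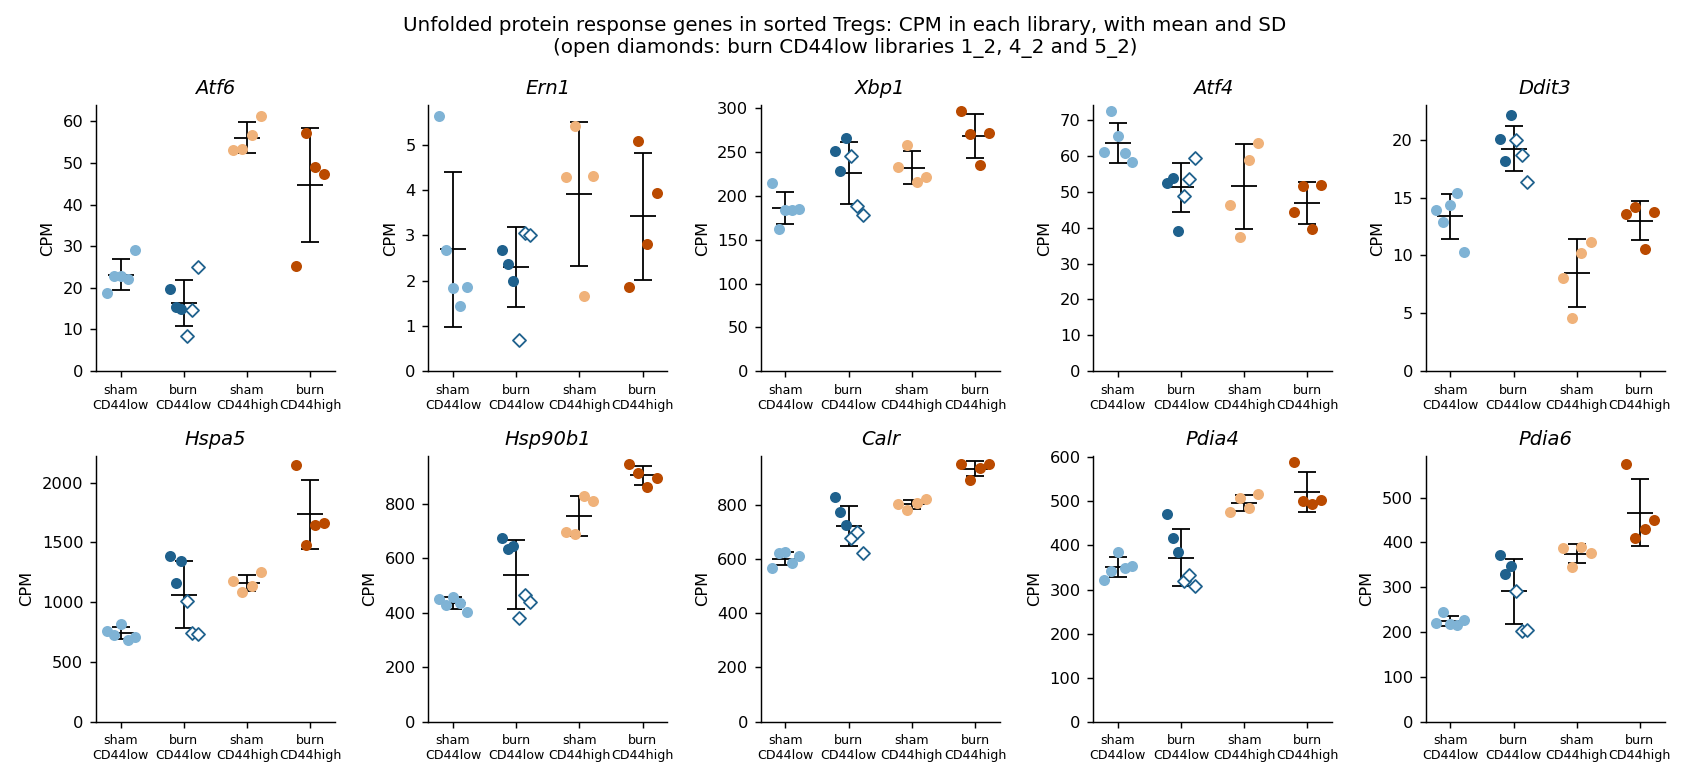
Expression of the 10 members in each library, in CPM on a linear axis from 0, by group; points are libraries, open diamonds the burn CD44low libraries 1_2, 4_2 and 5_2, and bars the mean and SD. Hspa5 ran from 685.6 to 814.2 CPM in sham CD44low and from 1482 to 2152 in burn CD44high Tregs, while the burn CD44low libraries spread from 738.3 to 1385.

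Hspa5, whose product BiP is the main HSP70 of the ER and holds the sensors inactive, read 1174, 1088, 1133 and 1252 CPM in the 4 sham CD44high libraries. The 5 sham CD44low libraries read 759.6, 726.5, 814.2, 685.6 and 707.8 CPM. Every CD44high library thus lay above every CD44low library, and the log2 fold change was 0.65 ± 0.15 (SE; edgeR adjusted p = 0.00124). In burn mice the CD44high libraries read 2152, 1482, 1644 and 1662 CPM, against a lowest of 738.3, a median of 1085 and a highest of 1385 CPM in the CD44low libraries. These groups did not overlap either, with a log2 fold change of 0.71 ± 0.15 (adjusted p = 0.000488).

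Hsp90b1 (chr10:86690209-86705509, minus strand) encodes GRP94, the HSP90 of the ER, which integrins and Toll-like receptors need to fold. It read 695.2, 689.1, 827.3 and 810.1 CPM in sham CD44high and 451.3, 429.0, 458.4, 436.6 and 401.6 CPM in sham CD44low Tregs. This was a log2 fold change of 0.80 ± 0.13 (adjusted p = 3.04e-05), the highest among the chaperones in sham mice. In burn mice the difference was 0.75 ± 0.13 (adjusted p = 4.89e-05), with CD44high libraries from 863.3 to 948.2 CPM and CD44low libraries from 382.2 to 675.5 CPM.

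The remaining folding genes differed in the same direction, and none of their groups overlapped. Over all genes tested, every CD44high library lay above every CD44low library for 21.9% in sham and 15.6% in burn mice. Calr held between 781.0 and 820.6 CPM in sham CD44high and between 566.2 and 624.4 CPM in sham CD44low Tregs, a log2 fold change of 0.42 ± 0.08 (adjusted p = 0.000222), and of 0.37 ± 0.08 in burn mice (adjusted p = 0.000588). Pdia6 (chr12:17266545-17284770, plus strand), an isomerase that works beside BiP, held between 344.7 and 390.0 against between 216.3 and 244.5 CPM in sham mice. Its log2 fold change was 0.73 ± 0.15 in sham (adjusted p = 0.000281) and 0.68 ± 0.14 in burn mice (adjusted p = 0.000475). Pdia4 (chr6:47796141-47813430, minus strand), a larger isomerase of the same family, was higher by 0.50 ± 0.11 in sham (adjusted p = 0.000624) and 0.49 ± 0.10 in burn mice (adjusted p = 0.000692) on the log2 scale. The size of the difference in burn mice moved with the CD44low libraries used. With 1_2, 4_2 and 5_2 left out it was 0.42 for Hspa5, 0.47 for Hsp90b1 and 0.42 for Pdia6, and with them as the only burn CD44low libraries 1.04, 1.05 and 0.98. All 5 folding genes passed in both (highest adjusted p 0.0169, for Pdia4), beside 18.2% of all genes that were higher in each.

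Of the sensors, Atf6 had the largest difference of the 10 members. The 4 sham CD44high libraries read 53.1, 53.2, 56.7 and 61.2 CPM, against 18.8, 22.8, 22.9, 22.1 and 29.2 CPM in the 5 sham CD44low libraries. This was 2.42-fold, a log2 fold change of 1.28 ± 0.23 (adjusted p = 6.39e-05), with no overlap. In burn mice the CD44high libraries read 25.2, 57.1, 49.1 and 47.3 CPM, and the CD44low libraries had a lowest of 8.45, a median of 15.1 and a highest of 25.1 CPM. The log2 fold change was 1.45 ± 0.22 (adjusted p = 1.03e-05), and library 2 of burn CD44high lay just above the highest CD44low library, well below the other 3 of its group. Atf6 is among the genes that the study named from these samples as high in CD44high Tregs, so its direction is no independent evidence. It lies at chr1:170704674-170867771 (minus strand) and has 9231 bases of exon. Among all genes of over 7000 bases, the median log2 fold change was -0.26 in sham and -0.14 in burn mice, opposite in sign to that of Atf6.

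Ern1 (chr11:106394650-106487852, minus strand), which encodes the sensor IRE1, was the least abundant member per kilobase in sham CD44high Tregs. It read between 1.67 and 5.43 CPM in sham CD44high and between 1.44 and 5.63 CPM in sham CD44low Tregs, and was not called in either comparison. The 95% interval of its log2 fold change ran from -0.40 to 1.49 in sham and from -0.33 to 1.47 in burn mice, which takes in both 0 and the differences seen for the chaperones.

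The transcription factors did not move as 1 group. Xbp1 (chr11:5520659-5525893, plus strand) held 232.7, 258.7, 216.0 and 222.2 CPM in sham CD44high and 214.5, 162.7, 183.5, 183.5 and 185.4 CPM in sham CD44low Tregs. All CD44high libraries lay above the CD44low ones, though 216.0 and 214.5 CPM were close, and the log2 fold change was 0.32 ± 0.12 (adjusted p = 0.0267). In burn mice it was 0.25 ± 0.11 and did not pass (adjusted p = 0.0837), but it passed without burn CD44low library 5 (adjusted p = 0.0453), with 1 and 1_2 and 5 and 5_2 summed (0.28, adjusted p = 0.0403) and with 1_2, 4_2 and 5_2 as the only burn CD44low libraries (0.38, adjusted p = 0.0201). The sham call was lost when 1 of 5 libraries was left out (sham CD44high 2 or 3, sham CD44low 2, 3 or 4), with adjusted p between 0.0515 and 0.11, and when the trend on transcript length was taken out (0.23, adjusted p = 0.0945).

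Ddit3 went the other way. It read 8.02, 4.58, 10.2 and 11.2 CPM in sham CD44high and 13.9, 12.9, 14.3, 15.4 and 10.3 CPM in sham CD44low Tregs, a log2 fold change of -0.65 ± 0.21 (adjusted p = 0.0151) between groups that overlapped in 1 library on each side. In burn mice the CD44high libraries held between 10.6 and 14.2 CPM and the CD44low libraries between 16.4 and 22.1 CPM, a log2 fold change of -0.56 ± 0.20 (adjusted p = 0.0254). These groups did not overlap, and 9.2% of all genes tested were lower in this way. The calls were lost without sham CD44high 3 (adjusted p = 0.0585) and without burn CD44high 4 (adjusted p = 0.095). In burn mice the call was also lost with a replicate block (-0.49, edgeR adjusted p = 0.107) and with that block within sham and burn (-0.57, adjusted p = 0.0986). It was lost too with 1_2, 4_2 and 5_2 as the only burn CD44low libraries (-0.52, adjusted p = 0.0993). The annotation holds 2 overlapping gene models named Ddit3 (the longer at chr10:127290774-127296288, plus strand), and the end of the longer model overlaps the gene Mars on the other strand. No source used here states whether the counting used strand.

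Atf4 (chr15:80255184-80257541, plus strand), the factor downstream of PERK, held between 37.5 and 63.7 CPM in sham CD44high and between 58.4 and 72.5 CPM in sham CD44low Tregs. Its log2 fold change was -0.30 (95% interval -0.61 to 0.00, adjusted p = 0.0987) in sham and -0.13 (-0.42 to 0.17, adjusted p = 0.51) in burn mice. After the burn, CD44high libraries held between 39.8 and 51.9 CPM and CD44low libraries between 39.1 and 59.6 CPM. With the trend on transcript length taken out, the sham difference was -0.45 and passed the test (adjusted p = 0.0212), as it did without sham CD44high 5 (-0.43, adjusted p = 0.032). With the trend fitted to the mean taken out, Atf4 was lower in sham (-0.64, adjusted p = 0.00109) and in burn mice (-0.36, adjusted p = 0.0472).

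**Figure D2:**
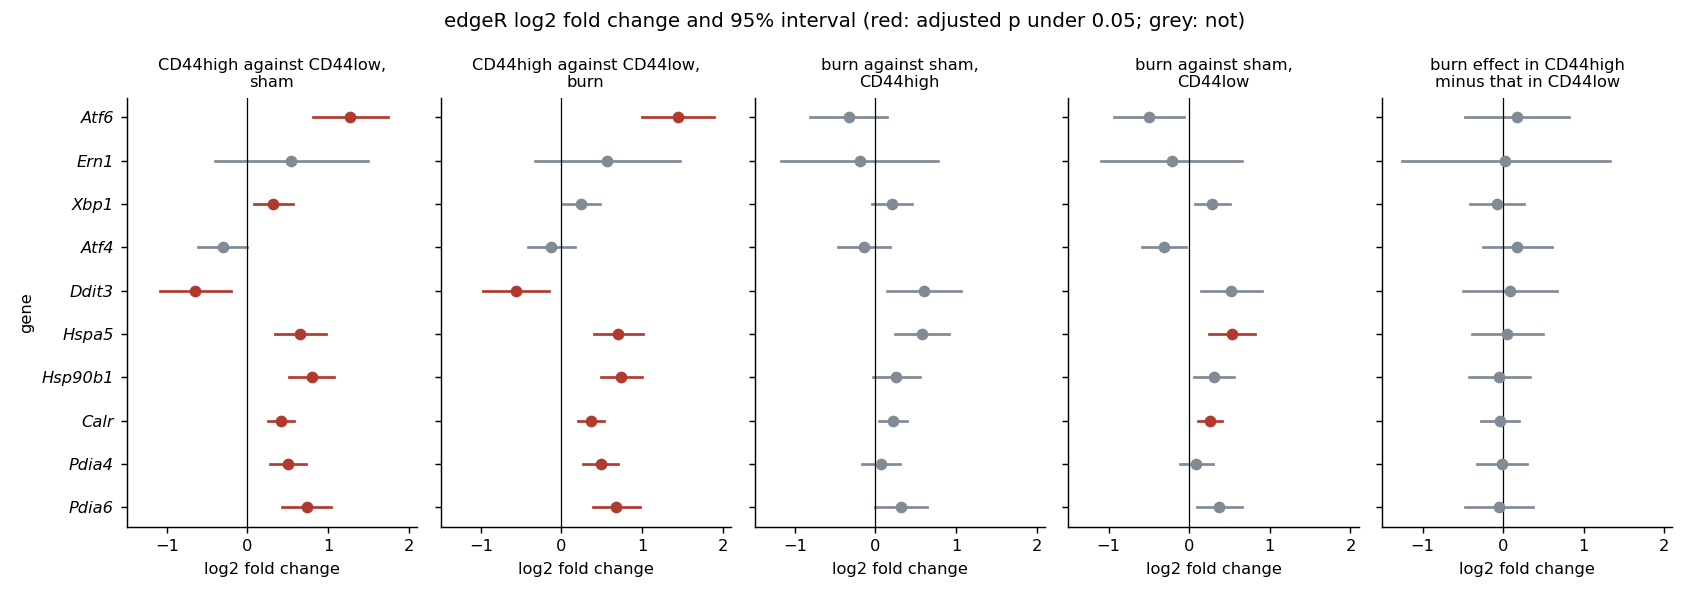
Log2 fold change of each member with its 95% interval from edgeR, in the 4 comparisons of groups and, at the right, the burn effect in CD44high minus that in CD44low Tregs; red marks an adjusted p under 0.05. The chaperones and isomerases lie between 0.37 and 0.80 in both CD44high comparisons, and all intervals of the difference between subsets include 0.

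The second question was what the burn changed within each subset. In CD44low Tregs Hspa5 and Calr were higher after the burn and no member was lower, 2 and 0 of the 10, beside 4.24% and 3.36% of all genes tested. Against the sham values given above, Hspa5 rose by 0.53 ± 0.14 on the log2 scale (edgeR adjusted p = 0.0241) and Calr, with between 622.7 and 828.3 CPM after the burn, by 0.26 ± 0.07 (adjusted p = 0.0342). The groups overlapped for both genes. Neither passed when the CD44low groups were fitted alone (adjusted p = 0.0584 for Hspa5 and 0.106 for Calr). With a replicate block both calls were lost too (Hspa5 0.47, adjusted p = 0.0693, and Calr 0.26, adjusted p = 0.0868). Calr did not pass without sham library 1 (adjusted p = 0.0571) or burn library 1 (adjusted p = 0.0544).

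The 6 burn CD44low libraries did not read alike. Libraries 1, 2 and 5 held 1385, 1160 and 1344 CPM of Hspa5, and libraries 1_2, 4_2 and 5_2 held 1010, 746.7 and 738.3 CPM, the last 2 within the range of the sham libraries. The 5 folding genes together summed to 3732, 3313 and 3444 CPM in the first 3 and to 2682, 2448 and 2310 CPM in the others, against 2273 to 2501 CPM in the sham libraries. Hence all of the first 3, and only 1_2 of the others, lay above every sham library. With 1_2, 4_2 and 5_2 left out, 6 members rose (Hspa5, Hsp90b1, Pdia6, Calr, Xbp1 and Pdia4), by 0.28 for Pdia4 to 0.81 for Hspa5 on the log2 scale (adjusted p between 2.79e-05 and 0.0355), beside 7.4% of all genes tested. With only those 3 as the burn group, 0 members passed, beside 2.62% of all genes that were higher and 1.23% that were lower, and Hspa5 differed by 0.19 (adjusted p = 0.341) and Hsp90b1 by 0.00 (adjusted p = 0.998). On all 6 libraries DESeq2 called 5 members as higher, beside 8% of all genes to which it gave an adjusted p.

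**Figure D3:**
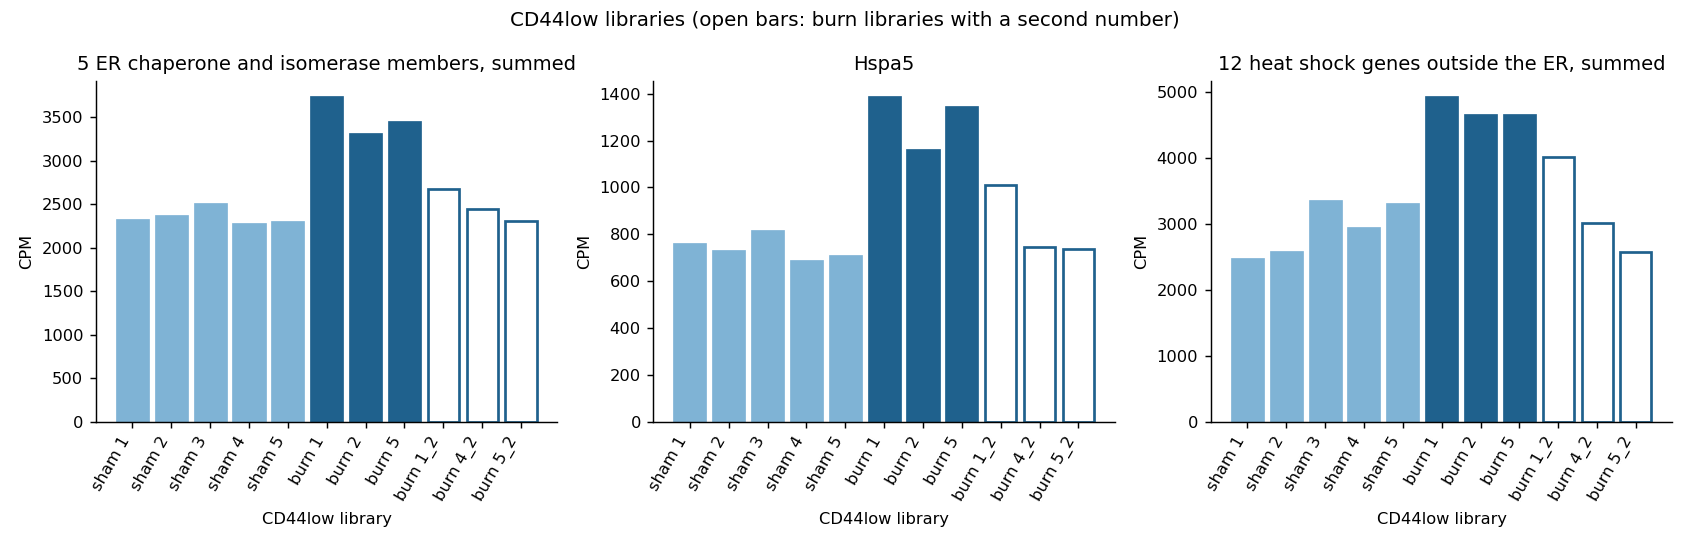
CPM in the 11 CD44low libraries, summed over the 5 chaperone and isomerase members (left), of Hspa5 alone (middle) and summed over 12 heat shock genes outside the ER (right); open bars are the burn libraries 1_2, 4_2 and 5_2. In each panel burn libraries 1, 2 and 5 lie above all sham libraries, while 4_2 and 5_2 lie within the range of the sham libraries.

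The same libraries stood apart in genes outside the ER. The 12 heat shock genes of the cytosol, nucleus and mitochondria, with Hsp90ab1 the most abundant, summed to 4919, 4654 and 4656 CPM in burn CD44low libraries 1, 2 and 5 and to 4019, 3016 and 2575 CPM in 1_2, 4_2 and 5_2. The sham CD44low libraries summed to between 2465 and 3352 CPM. The part of this heat shock level in the members' difference was not tested.

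The other members in CD44low Tregs did not pass. At an unadjusted p under 0.05 there were 8 of the 10 members, beside 26% of all genes tested. Ddit3 read 20.1, 18.2, 22.1, 20, 18.7 and 16.4 CPM in burn libraries 1, 2, 5, 1_2, 4_2 and 5_2, all above the 15.4 CPM of the highest sham library, as were the burn libraries for 2.39% of all genes tested. Its log2 fold change was 0.52 ± 0.18 (adjusted p = 0.0768), and its burn libraries were higher with and without a second number. For Pdia6 the difference was 0.37 (adjusted p = 0.0861), for Hsp90b1 0.31 (adjusted p = 0.103) and for Xbp1 0.28 (adjusted p = 0.0911). Atf6 was the member with the most negative value, -0.50 (95% interval -0.93 to -0.06, adjusted p = 0.137), with a median of 15.1 CPM after the burn and 22.8 CPM in sham mice. Genes of over 7000 bases had a median of -0.17 in this comparison, and with the length trend taken out Atf6 stood at -0.34 (adjusted p = 0.27) and Calr at 0.18 (adjusted p = 0.106). Atf4 differed by -0.31 (adjusted p = 0.136; -0.44 and 0.0498 with the trend fitted to the mean taken out), and Pdia4 (0.09) and Ern1 (-0.22) had intervals that included 0.

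In CD44high Tregs 0 of the 10 members passed in either direction by edgeR, beside 1.06% of all genes tested that were higher and 1.33% that were lower. At an unadjusted p under 0.05 there were 3 (Hspa5, Ddit3 and Calr), beside 15.1% of all genes, and DESeq2 called 1 as higher, Hspa5, beside 1.79% of all genes to which it gave an adjusted p. For 4 members (Hspa5, Hsp90b1, Calr and Pdia6) every burn library lay above every sham library, beside 5.91% of all genes tested. Hspa5 stood 0.58 ± 0.16 higher on the log2 scale (adjusted p = 0.0583), from a highest of 1252 CPM in sham to a lowest of 1482 CPM in burn mice, and its adjusted p ran from 0.00109 to 0.199 over the alternatives. Calr read 951.4, 892.0, 934.9 and 951.0 CPM after the burn, all above the sham libraries, for a log2 fold change of 0.22 (95% interval 0.04 to 0.39, adjusted p = 0.211). Hsp90b1 differed by 0.26 (interval -0.03 to 0.55), Pdia6 by 0.32 (-0.01 to 0.64) and Pdia4 by 0.07 (-0.17 to 0.31).

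The sensors and factors overlapped between burn and sham CD44high Tregs. Ddit3 held between 10.6 and 14.2 CPM after the burn and between 4.58 and 11.2 CPM in sham mice, a log2 fold change of 0.61 (95% interval 0.15 to 1.06, adjusted p = 0.164). Atf6 differed by -0.33 (-0.81 to 0.15) and Xbp1 by 0.21 (-0.04 to 0.46). Of these genes, Atf4 (-0.14) and Ern1 (-0.19) were nearest to 0.

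Library 2 of burn CD44high was high or low in several members at once. It held the highest Hspa5, Hsp90b1, Calr, Pdia4, Pdia6 and Xbp1 of its group, for Calr by little (951.4 against 951.0 CPM). It also held the lowest Atf6 and Ern1, which are the members of longest transcript. Without it, Hspa5 was still higher by 0.47 on the log2 scale, the lowest of its values with 1 library left out.

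The burn effect on the members was not shown to differ between the subsets. In the test of that difference 0 of the 10 members passed by edgeR, 0 by DESeq2 and 0 at an unadjusted p under 0.05. By edgeR 0.192% of all genes had a more positive burn effect in CD44high Tregs and 0.454% a more negative one, by DESeq2 0.451% and 1.23%, and 10.9% were at an unadjusted p under 0.05, so 0 of 10 is near the share of all genes. For Hspa5 the effects differed by 0.05 on the log2 scale (95% interval -0.39 to 0.49), for Calr by -0.04 (-0.28 to 0.19) and for Ern1 by 0.03 (-1.26 to 1.32). The 4 groups enter 2 comparisons each, so the comparisons share libraries.

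Around these members, 124 further genes of the ER and of the stress response were listed in 7 classes, of which 115 were tested. In sham mice 51 of them were higher and 7 lower in CD44high Tregs, and in burn mice 46 and 8, beside 24.7% and 21.3% of all genes tested in sham and 20.1% and 17.2% in burn mice. Their medians were 0.23 and 0.24 on the log2 scale against 0.01 and 0.00 over all genes. In sham mice 10 of 15 cochaperones and other ER chaperones were higher and 2 lower, as were 12 and 1 of 25 genes of import and glycosylation. Of 22 genes of ER-associated degradation 10 were higher and 0 lower, and of 14 isomerases and oxidases 6 and 0. The lectin folding cycle had 2 higher and 1 lower of 8 genes in sham mice, a share of higher genes near that of all genes. In burn mice it had 4 higher and 0 lower. Of 10 sensors and their processing enzymes 1 was higher in sham mice (Traf2, 0.36, adjusted p = 0.0171) and 0 lower. No test compared the classes with one another. Eif2ak3, which encodes PERK, did not pass in sham mice (0.01, adjusted p = 0.98). In burn mice 4 of the 22 degradation genes were higher and 1 lower, a share of higher genes near the 20.1% of all genes. Isomerases and oxidases had 7 higher and 0 lower there, and cochaperones and other ER chaperones 10 and 0. Import and glycosylation had 13 and 1, and sensors and their processing enzymes 1 and 1.

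Further folding genes were higher with the 5 chaperone and isomerase members. Txndc5, a thioredoxin-like isomerase, held between 222.5 and 257.7 CPM in sham CD44high and between 83.9 and 122.9 CPM in sham CD44low Tregs (1.22, adjusted p = 2.06e-09). Prdx4, a peroxiredoxin of the ER, was higher by 1.65 (adjusted p = 2.25e-09) and Ero1l, the oxidase that recharges isomerases, by 1.12 (adjusted p = 9.4e-08). Sec11c, a subunit of the signal peptidase, was higher by 1.56 (adjusted p = 1.9e-09), and Fkbp2 and Ppib, which are prolyl isomerases, by 1.53 (adjusted p = 5.76e-08) and 0.69 (adjusted p = 2.07e-05). Sdf2l1, a partner of BiP in its cycle, was higher by 1.25 (adjusted p = 8.03e-07), and Derl3 of the degradation channel by 2.5, from 1.49 to 8.35 CPM (adjusted p = 0.00018). In burn mice Prdx4 (1.34), Txndc5 (0.92), Ero1l (0.93), Sec11c (1.34), Sdf2l1 (1.15), Ppib (0.75) and Derl3 (2.47) were higher too, and so was Fkbp2 (0.80, adjusted p = 0.000239).

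Against them, some ER genes were lower in CD44high Tregs. In sham mice Dnajc3, which encodes a cochaperone of BiP that also restrains PERK, was lower by -0.57 (adjusted p = 1.38e-05) and Stt3b, a catalytic subunit of oligosaccharyltransferase, by -0.58 (adjusted p = 0.00044). Hyou1, the nucleotide exchange factor of BiP, was lower by -0.68 (adjusted p = 0.0371) and Uggt1, the folding sensor of glycoproteins, by -0.64 (adjusted p = 0.00492). These last 2 have transcripts of 7230 and 12853 bases, and did not pass once the length trend was taken out (-0.50, adjusted p = 0.0793, and -0.22, adjusted p = 0.138). In burn mice Stt3b was lower too (-0.55, adjusted p = 0.000643), but Dnajc3 (-0.13, adjusted p = 0.227), Uggt1 (-0.19, adjusted p = 0.388) and Hyou1 (0.255, adjusted p = 0.444) did not pass.

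A further class was that of PERK signalling and the integrated stress response, which PERK shares with other kinases. Of its 21 genes tested, 10 were higher and 3 lower in CD44high Tregs in sham mice, and 7 and 5 in burn mice, beside 24.7% and 21.3% of all genes in sham and 20.1% and 17.2% in burn mice. Asns, which makes asparagine, held between 13.4 and 17.6 CPM in sham CD44high and between 0.315 and 2.5 CPM in sham CD44low Tregs (3.36, adjusted p = 4.22e-08). The serine synthesis genes Psat1 (1.45, adjusted p = 1.08e-08) and Phgdh (0.88, adjusted p = 3.05e-08) were higher with it. The genes that were lower were Ppp1r15a, the stress-induced phosphatase subunit GADD34 (-1.04, adjusted p = 0.0112), Trib3, a target of CHOP (-1.0, adjusted p = 0.0423), and the amino acid transporter Slc7a5 (-0.83, adjusted p = 0.00527). Beside this, all 18 genes of a list for cell division were higher in CD44high Tregs in sham and in burn mice. Their summed level was 2590 ± 212 (SD, n = 4) against 548 ± 29.9 CPM (n = 5) in sham and 1920 ± 97.9 (n = 4) against 601 ± 72.4 CPM (n = 6) in burn mice. The part of division in the higher ER genes was not tested.

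**Figure D4:**
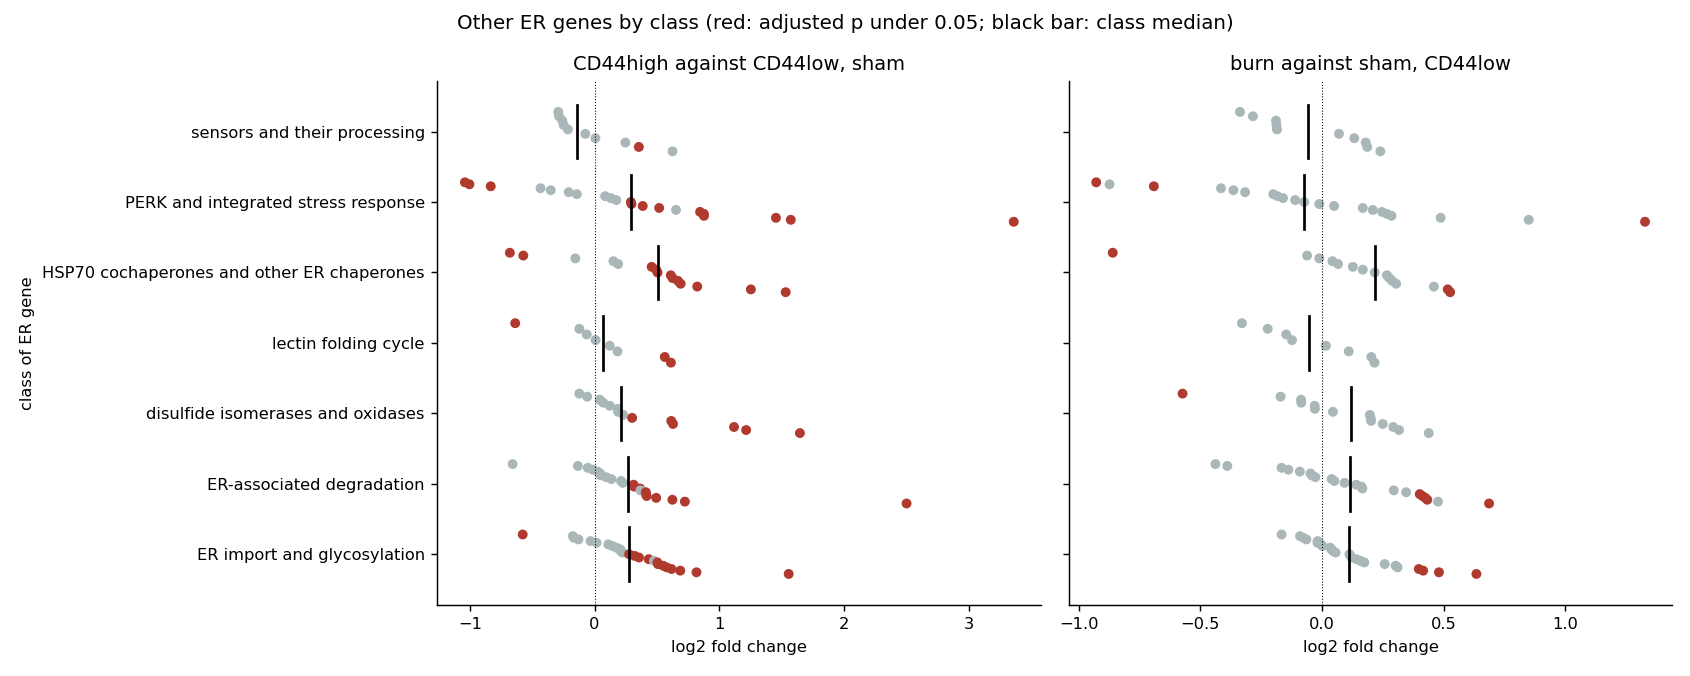
Log2 fold change of the 115 further ER and stress response genes tested, by class, for CD44high against CD44low in sham mice (left) and for burn against sham in CD44low Tregs (right, on its own scale); each point is a gene, red an adjusted p under 0.05, and the black bar the class median. Of the cochaperones and other ER chaperones 10 were higher and 2 lower at the left, and 2 higher and 1 lower at the right. Of all genes tested, 24.7% were higher and 21.3% lower at the left, and 4.24% and 3.36% at the right.

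After the burn, 12 of the 115 genes were higher and 4 lower in CD44low Tregs, and 3 were higher and 0 lower in CD44high Tregs. Of all genes tested, 4.24% were higher and 3.36% lower in CD44low and 1.06% and 1.33% in CD44high Tregs, so the 4 lower genes were near the share of all genes. Ddit4 encodes an inhibitor of mTORC1 that stress and glucocorticoids raise, and rose in both subsets. It held between 98.1 and 167.9 CPM in the 6 burn CD44low libraries and between 41.4 and 60.3 CPM in the sham libraries (1.33, adjusted p = 1.28e-05). In CD44high Tregs it held between 68.0 and 103.1 against between 36.6 and 46.7 CPM (1.13, adjusted p = 0.000313). The burn libraries lay above all sham libraries in both subsets, those with a second number included. The other genes that rose in CD44high Tregs were Cnpy2 (0.52, adjusted p = 0.019) and Dnajc3 (0.38, adjusted p = 0.0277).

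In CD44low Tregs Sec11c rose by 0.64 (adjusted p = 0.00419), Man1b1 by 0.69 (adjusted p = 0.0142), Aup1 by 0.41 (adjusted p = 0.0127) and Ubxn4 by 0.40 (adjusted p = 0.0223), the last 3 genes of ER-associated degradation. Sdf2l1 (0.53, adjusted p = 0.032) and Creld2 (0.52, adjusted p = 0.0409) rose, but did not pass once the length trend was taken out. For Creld2 the burn libraries 4_2 and 5_2 (34.5 and 38.6 CPM) lay within the sham range of 30.3 to 43.7 CPM, and for Sdf2l1 library 5_2 (29.9 CPM) lay below the lowest sham library (30.5 CPM), while the other burn libraries lay above all sham libraries. Hyou1 fell by 0.86 on the log2 scale (adjusted p = 0.0276), from between 60.3 and 83.6 CPM to between 19.7 and 57.4 CPM, in the comparison in which its partner Hspa5 rose.

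Both regulatory subunits that bring the phosphatase to eIF2 alpha were lower after the burn in CD44low Tregs. Ppp1r15b, the constitutive subunit, held between 88.4 and 115.4 CPM in sham and between 50.0 and 76.5 CPM in burn libraries (-0.69, adjusted p = 0.00873). Ppp1r15a held between 144.4 and 226.6 CPM in sham libraries, 39.6, 50.5 and 43.5 CPM in burn libraries 1, 2 and 5, and 125.0, 126.6 and 171.4 CPM in 1_2, 4_2 and 5_2 (-0.93, adjusted p = 0.0476). Within the burn CD44low group, the 3 libraries of highest Hspa5 were those of lowest Ppp1r15a. In CD44high Tregs Ppp1r15a held between 67.7 and 105.2 CPM in sham and between 31.1 and 51.7 CPM in burn libraries. These groups did not overlap, as for 7.34% of all genes tested that were lower in this way, but the gene was not called. Ppp1r15b overlapped there (76.7 to 96.6 CPM in sham and 45.5 to 95.1 CPM in burn libraries).

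Genes of other cell types were counted beside the members, since plasma cells and macrophages are rich in ER. The sorted gate should hold neither. Of the 13 genes for B cells and plasma cells in the table, 11 were tested, of which 4 were higher in CD44high Tregs in sham mice (beside 24.7% of all genes) and 2 in burn mice (beside 20.1%, a like share). Their summed level was 1410 ± 425 (SD, n = 4) against 535 ± 109 CPM (n = 5) in sham and 1130 ± 260.0 (n = 4) against 742 ± 212 CPM (n = 6) in burn mice. Most of it was Cd74, which activated T cells can also express (1132 against 352.6 CPM in sham mice). Of the genes that mark plasma cells, Tnfrsf17 was at 0 in all libraries, Jchain held 0.220 ± 0.338 and 0.240 ± 0.329 CPM in sham CD44high and CD44low Tregs, and Mzb1 2.58 ± 2.24 and 1.78 ± 1.31 CPM. In burn CD44high and CD44low Tregs Jchain held 2.02 ± 2.42 and 0.367 ± 0.368 CPM and Mzb1 2.93 ± 1.42 and 2.31 ± 0.848 CPM. Sdc1, which encodes the plasma cell marker CD138, read higher in the CD44high groups, with 2.74 ± 1.38 against 0.210 ± 0.289 CPM in sham and 3.72 ± 0.518 against 0.645 ± 0.378 CPM in burn mice. Immunoglobulin genes were not analysed here.

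Markers of macrophages and dendritic cells, with Lyz2 the most abundant, summed to 116 ± 35.1 CPM in sham CD44high, 36.1 ± 8.16 in sham CD44low, 162 ± 69.1 in burn CD44high and 77.0 ± 48.6 CPM in burn CD44low Tregs. Of the 10 tested, 8 were higher in CD44high Tregs in sham mice, beside 24.7% of all genes, with a median log2 fold change of 1.92 against 0.01 over all genes. In burn mice there were 2 (median 0.96), about the 20.1% of all genes. After the burn 2 were higher in CD44low and 0 in CD44high Tregs, beside 4.24% and 1.06% of all genes, and 0 were lower in any of the 4 comparisons. Fcgr1 and Clec9a were at 0 in sham CD44low Tregs. Neutrophil genes summed to 0.170 ± 0.236 and 0.432 ± 0.731 CPM in the sham groups and to 9.51 ± 8.33 and 7.28 ± 11.7 CPM in the burn groups, with Elane at 0 throughout. CD8 and NK cell genes summed to 499 ± 95 against 89.5 ± 13.9 CPM in sham and 398 ± 42.5 against 94.9 ± 9.25 CPM in burn mice, most of it in CD44high Tregs Gzmb, which Tregs can express. Stromal genes summed to 72.5 ± 8.42 in CD44high against 205 ± 14.2 CPM in CD44low Tregs of sham mice and to 107 ± 15.2 against 198 ± 36.5 CPM in burn mice, most of it Pecam1, which T cells can express, and Pdpn was at 0 in all groups. The part of such cells in the members' differences was not tested.

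The genes whose levels followed each member most closely over the 19 libraries were found by the root mean square difference of centred log2 CPM. For Hspa5 they were Pdia6 (0.128, where Hspa5 itself varied with an SD of 0.481), Dnajb11 (0.178) and Creld2 (0.180). For Pdia6 they were Dnajb11 (0.106), Rpn1 (0.122) and Hspa5, and for Hsp90b1 Tm9sf2 (0.132), Rpn1 (0.142) and Agfg1 (0.146). Calr was nearest to Cers2 (0.087), Sdf4 (0.090) and P4hb (0.091), and Xbp1 to Traf2 (0.110), Elavl1 (0.116) and Gorasp2 (0.127). For Pdia4 the nearest were Lcp2, Dcaf12 and 9530068E07Rik, at 0.107 to 0.114. For Atf6 they were Nsd2 (0.281), Pola1 (0.284) and Kcna3 (0.284), for Atf4 Ncl, Grsf1 and Orc2 (0.137 to 0.165), for Ddit3 Clpp, Nbn and Kbtbd3 (0.246 to 0.263), and for Ern1 Myo1e, Dctn4 and Lrrcc1 (0.422 to 0.437, against its own SD of 0.652). All libraries share the 4 groups, so genes that differ between the groups alike are near each other by this measure.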

How the data were processed

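Reads were mapped with STAR in the VIPER workflow, and the authors deposited raw counts per gene, 1 column per sample. The submitters' processing notes name STAR 2.5, bcl2fastq 2.18 and the builds mm9 and mm10, and no source used here ties these counts to 1 of them. Gene positions and exon lengths were taken from GENCODE vM21 (GRCm38) by symbol, with a length for 99.0% of the genes tested. Tests used edgeR 4.0.16 in R 4.3.3 (low-count filter at 10, TMM scaling, 1 mean per group over all 19 libraries, quasi-likelihood test, two-sided, Benjamini-Hochberg adjustment over 11464 genes), limma 3.58.1 and DESeq2 1.42.0, and Python 3.11.15, pandas 2.3.3 and matplotlib 3.10.9. All count columns were mapped to a sample by label. CPM are counts scaled to the normalized library total, so their precision falls with the count. In simulated data, edgeR recovered 86.5% to 91.5% of 200 genes changed 2-fold in the comparisons of groups and 64% in the difference between subsets. The simulation gave all genes and libraries 1 spread, without the uneven burn CD44low libraries. Its shares therefore do not carry over to these libraries or to changes under 2-fold, which most members had.

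The members and lists were chosen with earlier results of these data known. Named were all members, the 3 called genes of smallest p per class, comparison and direction of the further ER genes (of which the text gives a part), the most abundant gene of each marker list and its genes at 0, and the 3 nearest genes of each member. Eif2ak3 and the plasma cell genes were named outside this rule, after their values were seen. Alternatives were DESeq2, RLE factors, no filter, the compared groups alone, a replicate block, other handling of burn CD44low 1_2, 4_2 and 5_2, leaving out each library, and the study's threshold (p under 1e-06, 2-fold). Taking out each library's length trend was chosen after seeing the data. Reference proteins were not used here.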

Additional observations from a re-analysis of the deposited data

Results flagged for a closer look

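Among the members, 1 of the 40 sets of libraries (10 genes in 4 groups) had a library far from the others by Dixon's 95% limit, where chance flags about 1 in 20. It was Pdia4 in burn CD44high library 2, at 589 CPM, with the other 3 libraries between 493 and 504 CPM. The same library held the highest Hspa5, Hsp90b1, Calr, Pdia6 and Xbp1 of its group.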

How the results depend on the processing

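The higher Atf6, Hspa5, Hsp90b1 and Pdia6 in CD44high Tregs kept their direction under all alternatives, in sham and burn mice, and their call under all but the p under 1e-06 with a 2-fold change. At that threshold the members higher and lower fell to 0 and 0 in sham and 1 (Atf6) and 0 in burn mice, and 0 rose after the burn in CD44low Tregs. Further ER genes called were then 9, 6, 1 and 1 (CD44high against CD44low in sham and burn, burn in CD44high and CD44low), all genes 951, 688, 17 and 14, and 10 for the difference between subsets.

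For the burn in CD44high Tregs, 1 member rose by DESeq2, without a filter, in the compared groups alone, under each handling of the burn CD44low libraries with a second number (summed, left out, alone) and with the length trend taken out. It was Hspa5. Further ER genes were then 5 (no filter), 11 (groups alone), 6 (summed), 10 (left out) and 6 (alone). All genes were 479 (DESeq2), 601 (groups alone), 476 (summed), 581 (left out) and 317 (length trend). For the burn in CD44low Tregs, members that rose were 5 (DESeq2), 0 (groups alone), 6 (left out), 0 (alone) and 1 (length trend). Further ER genes were 8 (groups alone), 35 (left out) and 7 (alone). All genes were 1460 (DESeq2), 463 (groups alone), 1748 (left out), 445 (alone) and 813 (length trend). For the difference between subsets, DESeq2 called 1 further ER gene and 212 genes, and 1 and 314 were called with the second-number libraries left out and 136 genes with them alone. With them alone, 0 members were lower in burn CD44high than CD44low Tregs, beside 18.6% of all genes.

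With each length trend centred on its median, 2 members were lower in sham CD44high Tregs, beside 5288 genes called in either direction. A trend fitted to the mean, which also moves the level of each library, left 4 members higher and 2 lower in sham and 4 higher and 2 lower in burn mice (Calr and Pdia4 were lost in both, Xbp1 in sham mice), and 1 higher and 1 lower after the burn in CD44low Tregs, with 10 further ER genes. All genes called in either direction were then 5569 in sham and 4911 in burn mice, and 694 after the burn in CD44low Tregs.

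Between subsets, the deviations of same-numbered libraries had r from -0.00685 to 0.119 in sham and from -0.0537 to 0.167 in burn mice. Differently numbered libraries had -0.0798 to 0.0395 and -0.452 to 0.41. Of the same-numbered pairs, 1 of 4 in sham and 3 of 4 in burn mice were over 0.1. Between sham and burn, same-numbered libraries had -0.00788 to 0.0178 in CD44high and -0.12 to 0.00608 in CD44low Tregs. Whether same-numbered libraries belong together is not settled by these values, and the main fit took no pairs. With a replicate block, 0 members rose after the burn in CD44low Tregs (Hspa5 adjusted p = 0.0693, Calr 0.0868), with 8 further ER genes and 440 genes in all, and in burn CD44high against CD44low Tregs 0 were lower and Xbp1 passed (0.31, adjusted p = 0.041). With the replicate block within sham and burn, 0 were lower there too, and 35 genes differed between subsets in the burn effect.

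Signs turned where values were near 0. The burn effect on Pdia4 in CD44low Tregs was -0.1095 (second-number libraries alone), -0.0155 (length trend) and -0.0382 (trend by its mean). The difference between subsets turned for Ern1 (-0.0381 and -0.797 with the 2 blocks, -0.02 summed, -0.1025 length trend, -0.0618 by its mean), Calr (0.0204 block within, 0.0567 alone, 0.0133 and 0.0476 length trends), Pdia4 (0.0635, 0.193, 0.0405 and 0.0828 in that order), Pdia6 (0.124 block within, 0.259 alone, 0.0292 by its mean), Xbp1 (0.0658 alone, 0.0167 by its mean), Hsp90b1 (0.272 and 0.0297) and Hspa5 (-0.232, left out). The causes were not tested.

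With 1 library left out, members lower in CD44high Tregs ran from 0 (without sham CD44high 3) to 2 (without sham CD44high 5) in sham and from 0 (without burn CD44high 4) to 1 in burn mice. With all libraries 21.3% and 17.2% of all genes tested were lower, so these counts are near that share. Of all genes, 4743 to 5134 were then called in either direction in sham and 3597 to 4410 in burn mice, with 1 library left out. After the burn in CD44low Tregs, members that rose ran from 1 (without sham 1 or burn 1) over 4 (without 4_2) to 6 (without 5_2), those that fell from 0 to 1 (Atf6, without 5_2), further ER genes from 8 (without 1_2) to 34 (without 5_2) and all genes from 510 (without sham 1) to 1893 (without 5_2). In CD44high Tregs they ran from 1 to 4 and from 152 to 215, and 43 to 110 genes differed between subsets. Ern1 ran from -0.449 to 0.0182 for the burn in CD44high and from -0.354 to 0.264 in CD44low Tregs. The difference between subsets ran from -0.13 to 0.237 (Ddit3), -0.441 to 0.211 (Ern1), -0.0915 to 0.0557 (Pdia4), -0.0811 to 0.134 (Hspa5), -0.132 to 0.0149 (Hsp90b1) and -0.181 to 0.0205 (Pdia6). Ern1 rests on few counts, 4 to 48 per library.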

Other observations

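Stress genes outside the ER were listed beside the members. Of 12 heat shock genes, 2 were higher and 1 lower after the burn in CD44high Tregs (edgeR, adjusted p under 0.05) and 3 higher and 3 lower in CD44low Tregs, beside 1.06% and 1.33% of all genes in CD44high and 4.24% and 3.36% in CD44low Tregs. Their summed levels were 2600 ± 395 (SD, n = 4) in sham and 3880 ± 528 CPM (n = 4) in burn CD44high Tregs. Among them Hsph1, an exchange factor of cytosolic HSP70, held 108 ± 14.3 and 251 ± 30.6 CPM, while Hspa1a, the inducible HSP70, held 10.1 ± 8.43 and 0.650 ± 0.416 CPM. Both were picked after their values were seen. Of 11 immediate-early genes tested, 0 were higher and 3 lower after the burn in CD44high Tregs and 0 and 2 in CD44low Tregs. They summed to 4140 ± 308 (n = 4) in sham and 2590 ± 245 CPM (n = 4) in burn CD44high Tregs, and to 4250 ± 488 (n = 5) and 3050 ± 674 CPM (n = 6) in CD44low Tregs. The burn CD44low libraries again did not read alike. Libraries 1, 2 and 5 summed to 2471, 2400 and 2542 CPM, and 1_2, 4_2 and 5_2 to 3886, 3202 and 3782 CPM. The sham CD44low libraries ran from 3801 to 4911 CPM.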
